A study of Mus musculus with 12 samples.

Results

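Cytosolic ribosomal protein genes encode the proteins of the small (Rps) and large (Rpl) subunits of the ribosome. They were taken as the protein-coding genes of the GENCODE M21 annotation of GRCm38 whose whole symbol is Rps or Rpl, then digits, then at most 1 of the letters a, x and l. This gave 76 genes, 30 Rps and 46 Rpl, of 21938 protein-coding genes. H3K27ac, an acetylated form of histone H3 found at active promoters and enhancers, was mapped by CUT&RUN, in which an antibody directs a nuclease to chromatin and the released DNA is sequenced. The CMs came from hearts of csNrip1-/- mice (genotype Nrip1 f/f Cre+) and of littermate controls (Nrip1 f/f Cre-), aged 10 to 12 weeks and male by the study's description, with 200000 cells per experiment. Each genotype had 3 H3K27ac and 3 IgG samples. Cre was expressed from the Nkx2.5 promoter. Both genotypes carried floxed Nrip1 alleles and the controls carried no Cre, so loss of RIP140, the corepressor that Nrip1 encodes, cannot be told apart from the presence of Cre.

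The data are 1 list of H3K27ac-enriched regions per genotype. The authors called regions in each replicate against IgG and kept those found in at least 2 of 3 replicates. The lists give positions and no signal or value per replicate, so no replicate error can be given, no test between genotypes was possible, and the depth behind each region is unknown. Each result on the ribosomal protein genes is therefore a description, and the main counts and medians stand beside the same measure over all protein-coding genes. There were 53754 control regions, 1846 bp wide at the median, and 45521 in the list of RIP140-null CMs, called the KO list, 2291 bp wide at the median. Fewer and wider regions in the KO list were thus a property of the whole lists.

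Every cell assembles ribosomes, and the ribosomal proteins are made in matched amounts from one of the most highly transcribed gene sets of the genome. Their promoters are compact, lie in CpG islands, mostly lack a TATA box, and often start transcription at a C within a run of C and T bases. That run becomes the 5′ terminal oligopyrimidine (TOP) tract of the mRNA, through which the mTORC1 kinase controls its translation, and ribosome production rises when CMs grow in hypertrophy.

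RefSeq promoter windows on GRCm38.p6, from 250 bases before to 50 after the annotated start, matched 57 of the 76 genes by symbol. A run of at least 5 C or T bases that begins with C within 10 bases of the start was found in 34 of 57 windows (59.6%) and in 31.4% of the 16522 windows of protein-coding genes. The letters CCGGAAG, which ETS factors bind, were found on either strand in 22 windows (38.6%; 12.3% of all). The YY1 letters AAGATGG were found in 8 (14%; 6.43% of all) and the GC box GGGCGG in 32 (56.1%; 48% of all). TATAAA stood on the plus strand 40 to 20 bases before the start in 0 windows (2.68% of all), and anywhere on either strand in 4 (7.02%; 12.9% of all). CCAAT was found in 17 (29.8%; 38.7% of all), the E-box CACGTG in 5 (8.77%; 8.11% of all), and TCAAGGTCA, a sequence bound by the ERR nuclear receptors, in 0 (0.339% of all). The median window held 21 CpG dinucleotides against 14 in all windows, at a GC content of 56.7% and 57%. The motifs were searched separately, none contains another, and a match describes the letters only.

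The windows below run 5′ to 3′ from 60 bases before to 20 after the start, and the capitals mark the run of C and T bases at the start where one was found. They belong to the genes on which the results turn. Rpl10a (chr17:28328411-28328490, plus strand) and Rpl38 (chr11:114668520-114668599, plus strand) had a promoter region in the KO list only. Rps24 (chr14:24490618-24490697, plus strand) and Rpl35a (chr16:33056393-33056472, plus strand) had the highest ratios of covered length, and Rps15a (chr7:118116128-118116207, minus strand) and Rpl37a (chr1:72711200-72711279, plus strand) the lowest. Rps6 (chr4:86857348-86857427, minus strand) encodes the substrate of the S6 kinases, and Rpl3l (chr17:24727766-24727845, plus strand) encodes the striated muscle paralog of Rpl3. Each spans the RefSeq start of its gene.

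Rpl10a: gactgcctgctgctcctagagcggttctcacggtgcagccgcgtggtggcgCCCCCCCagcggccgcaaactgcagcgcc

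Rpl38: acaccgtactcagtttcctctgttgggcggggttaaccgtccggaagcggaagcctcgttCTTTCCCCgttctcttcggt

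Rps24: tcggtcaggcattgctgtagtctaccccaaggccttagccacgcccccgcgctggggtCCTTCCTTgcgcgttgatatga

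Rpl35a: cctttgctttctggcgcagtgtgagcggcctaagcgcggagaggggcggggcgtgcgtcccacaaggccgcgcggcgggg

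Rps15a: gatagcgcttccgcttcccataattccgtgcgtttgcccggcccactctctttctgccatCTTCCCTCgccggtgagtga

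Rpl37a: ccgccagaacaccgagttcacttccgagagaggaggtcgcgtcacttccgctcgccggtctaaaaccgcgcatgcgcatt

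Rps6: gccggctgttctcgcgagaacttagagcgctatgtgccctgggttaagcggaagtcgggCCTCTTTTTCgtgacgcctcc

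Rpl3l: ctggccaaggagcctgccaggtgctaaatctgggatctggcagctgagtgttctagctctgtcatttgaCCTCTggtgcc

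Rpl35a and Rpl37a had no such run at the RefSeq start. The CpG count over the whole window was 25 at Rpl35a and 24 at Rpl37a, against 2 at the muscle gene Rpl3l.

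The CM label was checked with marker genes. A start of a protein-coding transcript, called a coding start here, lay in a region of both lists for 12 of 12 CM markers, among them Myh6, Tnnt2 and Ryr2. The regions at CM markers were broad, with a median width of 7693 bp in control and 7623 bp in RIP140-null CMs at the gene's 5′ end. Of 6 fibroblast markers, 0 had a coding start in a region of either list, Col1a2, Dcn, Postn and Tcf21 had no region at all, Col1a1 had 764 and 834 bp covered, and Pdgfra 796 bp in control only. Of 6 endothelial markers, 6 had a coding start in a control region and 4 in a KO region, with 101 and 107 kb covered in all and Tek the most covered in control CMs (37756 bp). Of 6 macrophage and leukocyte markers only Cd14 had one, in both lists, and 4.83 and 6.72 kb of the set were covered. Mural cells had 3 of 6 in both lists, with 21.9 and 20.4 kb covered, and 6 genes of absent tissues, such as Alb and Ins2, had no region. The lists come from bulk cells, so fewer cells of a type and less acetylation per cell cannot be told apart, and the part of endothelial or mural cells in the results was not tested. The last exon of Nrip1 (chr16:76287400-76295015), which holds its coding sequence, was covered over 2904 bp in the control list and over 0 bp in the KO list, in the direction of the genotype labels.

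Ribosomal protein genes were marked nearly throughout in both genotypes. The TSS, taken as the gene's annotated 5′ end, lay in a control region for 65 of 76 genes (85.5%) and in a KO region for 71 (93.4%). Over all protein-coding genes these shares were 43.6% and 47%. At 4 genes the annotated 5′ end is not the start of a coding transcript, and at others further coding starts lie downstream, so all coding starts were also used. By these, 71 genes (93.4%) were held in the control list and 74 (97.4%) in the KO list, against 47.3% and 50.3% of all protein-coding genes. All 30 small subunit genes had a coding start in a region of both lists, as had 41 of 46 large subunit genes.

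The 11 genes whose 5′ end lay outside the regions of a list fell into 3 kinds. For Rpl17, Rps2 and Rps10 the 5′ end was outside in both lists, and a coding start further downstream was inside in both. At that start the Rpl17 region was over 1.5-fold narrower in the KO list (3705 bp in control and 2338 bp in KO, log2 -0.66). The Rps10 region was over 1.5-fold wider (2198 and 4031 bp, log2 0.87). Rps24, Rps25 and Rpl3 had the 5′ end in a KO region only and a coding start in both lists. At Rps25 the control region began 83 bp downstream of the 5′ end. At Rps24, a small subunit protein mutated in Diamond-Blackfan anemia, the 5′ end lay 3556 bp upstream of the nearest coding start, and the KO region there (1580 bp) also held the start of the neighbor Polr3a. The remaining 5 were Rpl35, Rpl10a, Rpl38, Rpl10l and Rpl39l, all of the large subunit.

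Rpl10a, Rpl38 and Rpl35 had a coding start in a KO region and in no control region. This was 3 of the 74 ribosomal protein genes held at a coding start in either list, against 10.5% of all protein-coding genes so held, and the opposite pattern was found for 0 of 74 against 4.91%. At Rpl35 the difference was one of position. Its control region (1148 bp) began 49 bp downstream of the TSS, and its KO region (1543 bp) reached 186 bp upstream of it. At Rpl10a, which encodes a large subunit protein, the KO region reached 680 bp to the 5′ side and 1868 bp to the 3′ side of the TSS (2549 bp, chr17:28327791-28330339), and the nearest control region was 13169 bp away. At Rpl38, whose loss disturbs the patterning of the axial skeleton in mice, it reached 343 and 2129 bp (2473 bp, chr11:114668181-114670653), with the nearest control region 8444 bp away. The gene bodies of both, with 5 kb on each side, had 0 bp covered in the control list. A region found in only 1 control replicate is absent from the list, so absence does not show that acetylation was absent.

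The length covered by regions inside the gene body extended by 5 kb on each side was then compared. Of the 76 genes, 72 had a region in both lists, 3 in the KO list only (Rpl10a, Rpl38 and Rpl39l), 0 in the control list only, and Rpl10l had none. Covered length was over 1.5-fold longer in RIP140-null CMs at 14 of 72 genes (19.4%; 16.3% of all protein-coding genes) and over 1.5-fold shorter at 2 (2.78%; 8.6% of all). The share of longer genes was near that of all genes, and the share of shorter genes was below it. The first share depended on the limit, the window and the regions counted. With a limit of 2-fold 3 genes were longer (4.17%; 6.4% of all), which is below the share of all genes, and over the whole width of the regions 13 were (18.1%; 17.5% of all). Within the gene body alone 21 of 72 genes were longer (29.2%; 17.5% of all) and 5 were shorter (6.94% against 12.1% of all). With regions of 3 or more subpeaks 18 of 47 genes were longer (38.3%; 24.3% of all), an alternative chosen after the data were seen. The subpeak number in a region's name was taken to count the replicate peaks merged into it. The KO length was the greater at 50 genes (69.4%; 58.1% of all) and the control length at 22. The log2 ratio of KO over control length was 0.16 at the median, against 0.08 over all protein-coding genes. In total 254 kb was covered in control and 295 kb in RIP140-null CMs.

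**Figure D1:**
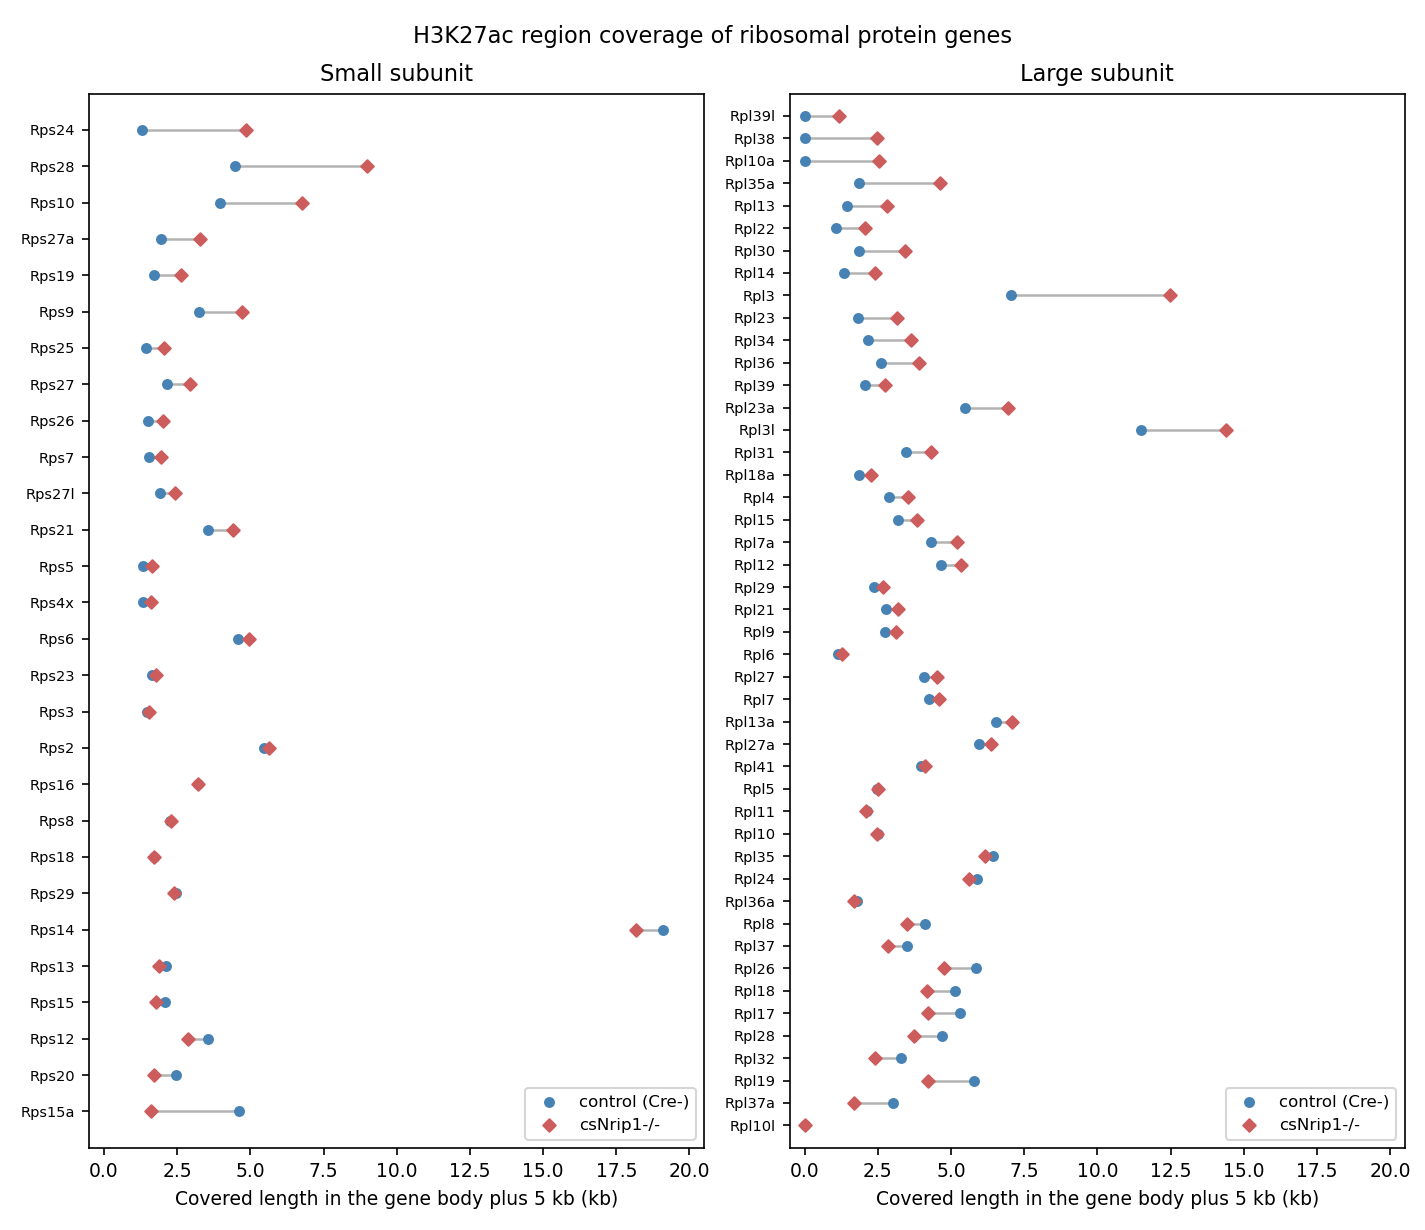
Length covered by H3K27ac regions (kb) inside the gene body plus 5 kb on each side for 28 of the 30 small and all 46 large subunit genes, with control CMs as circles and RIP140-null CMs as diamonds, ordered by the log2 ratio. Most pairs lie close together below 5 kb, KO values lie to the right at 48 of the 70 plotted genes with a region in both lists, and 3 large subunit genes at the top have 0 kb in control.

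Among small subunit genes, 5 of 30 were covered over 1.5-fold longer (16.7%; 16.3% of all, nearly the same share) and 1 shorter (3.33%; 8.6% of all), with a median log2 ratio of 0.15. The highest ratio was at Rps24, with 1308 bp in 1 control region and 4839 bp in 4 KO regions (log2 1.89). Its promoter did not widen to that extent, since the region at the coding start measured 1308 bp in control and 1385 bp in RIP140-null CMs. The added length lay in 3 other regions of the KO list, each with 2 subpeaks. Rps28 followed, with 4467 and 8976 bp (log2 1.01). At this gene the promoter region measured 1710 bp in control and 2983 bp in the KO list, and the next region upstream 1377 and 4756 bp. The promoter region also held the start of Ndufa7, a gene of mitochondrial complex I.

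The lowest ratio among the ribosomal protein genes was also in the small subunit, at Rps15a. It had 4625 bp in 3 control regions and 1597 bp in 1 KO region (log2 -1.53). Its promoter region moved the other way and measured 1060 bp in control and 1597 bp in RIP140-null CMs. The 2 control regions without a KO counterpart (2120 and 1445 bp) lay within the gene and had 2 subpeaks each. Rps20 had a similar makeup, with 2447 and 1700 bp covered (log2 -0.53) and a promoter region of 1548 and 1700 bp. Rps6, whose protein is phosphorylated by S6 kinase, had 4578 and 4963 bp covered in 2 regions of each list (log2 0.12).

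Among large subunit genes, 9 of 42 with a region in both lists were covered over 1.5-fold longer (21.4%; 16.3% of all) and 1 shorter (2.38%; 8.6% of all), with a median log2 ratio of 0.17. Rpl35a, another gene mutated in Diamond-Blackfan anemia, had 1857 and 4621 bp covered (log2 1.32). Its promoter region was the narrowest among the ribosomal protein genes in the control list (822 bp) and measured 2916 bp in the KO list. In both lists it also held the start of the neighbor Iqcg. Rpl13 had a single region of 1431 bp in control and 2806 bp in RIP140-null CMs (log2 0.97), and Rpl22 one of 1056 and 2063 bp (log2 0.97). At Rpl13 and Rpl22 the whole gain was at the promoter.

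Rpl37a was the only large subunit gene past 1.5-fold shorter, with a single region of 3004 bp in control and 1687 bp in RIP140-null CMs (log2 -0.83). The loss was downstream of the TSS, where the region reached 2319 bp in control and 1023 bp in the KO list, while upstream it reached 684 and 663 bp. Rpl32 likewise had a narrower promoter region, 3240 and 2219 bp, and 3281 and 2416 bp covered (log2 -0.44). Rpl19 differed from both, since its promoter region measured 2322 and 2472 bp and its covered length, 5785 and 4218 bp (log2 -0.46), was lower through a control-only region of 2233 bp beyond its 3′ end.

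**Figure D2:**
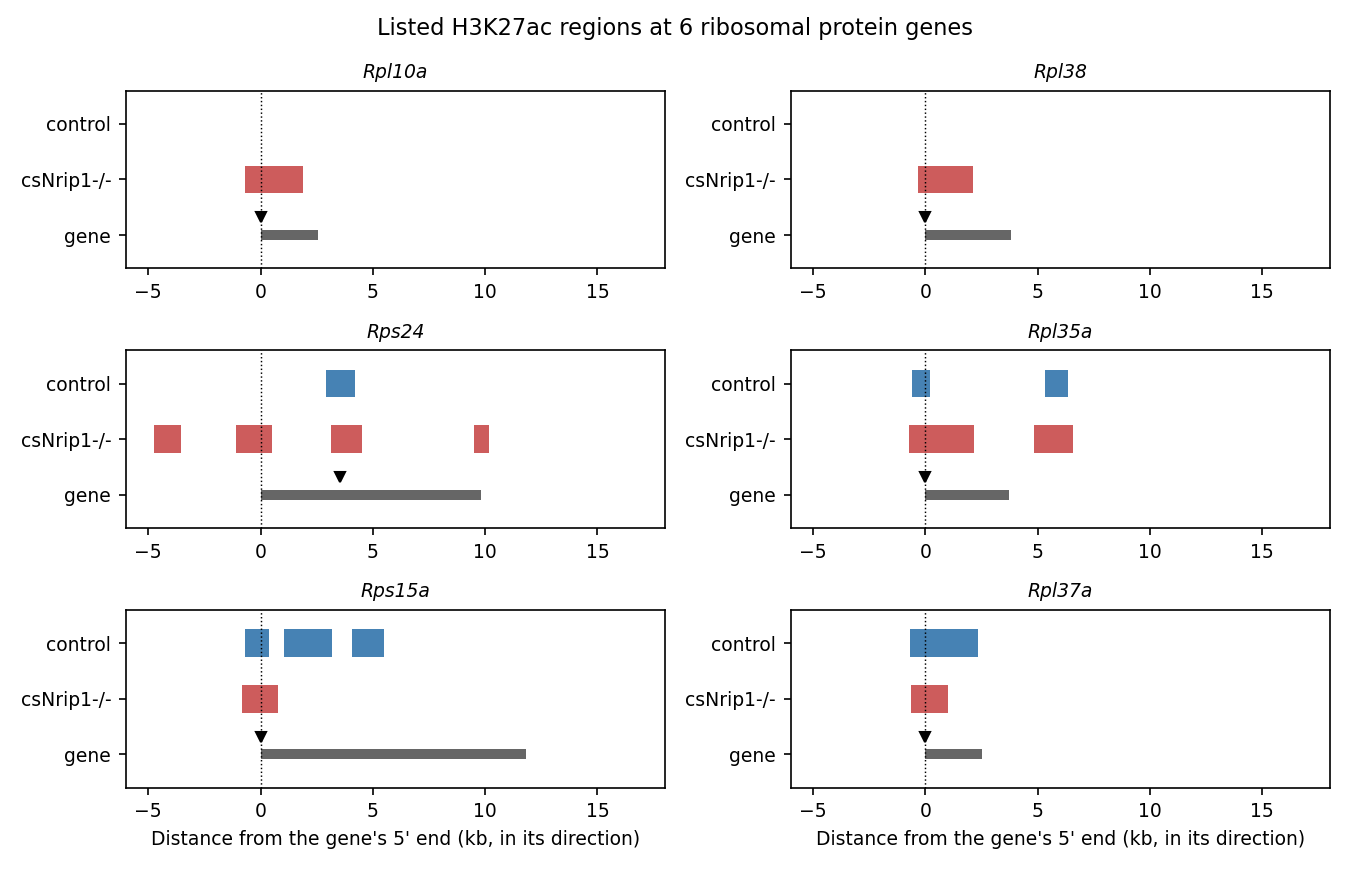
Position of the listed regions (kb from the gene's 5′ end, dotted line) in control and RIP140-null CMs at 6 genes, with the annotated gene as a gray bar and the coding start nearest its 5′ end as a triangle. Rpl10a and Rpl38 show no control region, Rps24 shows 4 KO regions against 1, the Rpl35a promoter region extends downstream in the KO list, Rps15a shows 3 control regions against 1, and the Rpl37a region ends earlier in the KO list.

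Longer coverage was made up of promoter and other regions. The 14 genes covered over 1.5-fold longer gained 30.4 kb in all. Their regions at a coding start held in both lists gained 15.7 kb in width. Of the 14 genes covered over 1.5-fold longer, 11 also had a region over 1.5-fold wider at such a start, and the others were Rpl3, Rpl14 and Rps24. All 14 had a coding start in a region of both lists. Of the 2111 longer protein-coding genes, 1271 had one, and 57.3% of these had a region over 1.5-fold wider there. At Rpl3, a core protein of the large subunit, the covered length was 7039 and 12469 bp (log2 0.82), and the region at the coding start in both lists measured 1900 and 2409 bp. The added length came from a KO region of 9410 bp at the annotated 5′ end, which also held the start of Syngr1. That 5′ end is itself a coding start, held in the KO list only. The 15.7 kb thus leaves out this promoter region. At Rpl14 the added length came from a KO-only region of 973 bp beyond the gene.

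The width of the region at the TSS gave the same picture. The 65 genes with the TSS in both lists had a median region width of 2031 bp in control, and the 71 with the TSS in the KO list one of 2384 bp. These are narrow regions, since the medians over all protein-coding genes were 2555 and 2752 bp. Regions over 5 kb held the TSS of 2 ribosomal protein genes in control (3.08%) and 3 in RIP140-null CMs (4.23%), against 19.3% and 23.3% of all genes with the TSS in the list. From control to RIP140-null CMs the region was over 1.5-fold wider at 16 of 65 genes (24.6%; 18.7% of all) and over 1.5-fold narrower at 2 (3.08%; 7.48% of all), Rpl18 and Rpl37a. The Rpl18 region (1843 and 1195 bp) also held the start of the neighbor Sphk2 in both lists. At another Rpl18 coding start the region measured 2380 and 2231 bp. The median log2 width ratio of the 65 genes was 0.21, against 0.10 over all genes, with 0.28 in the small and 0.17 in the large subunit. Widths in the 2 lists had a Spearman correlation of 0.64 across the 65 genes and 0.80 across all 9007, where all genes share the same libraries.

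**Figure D3:**
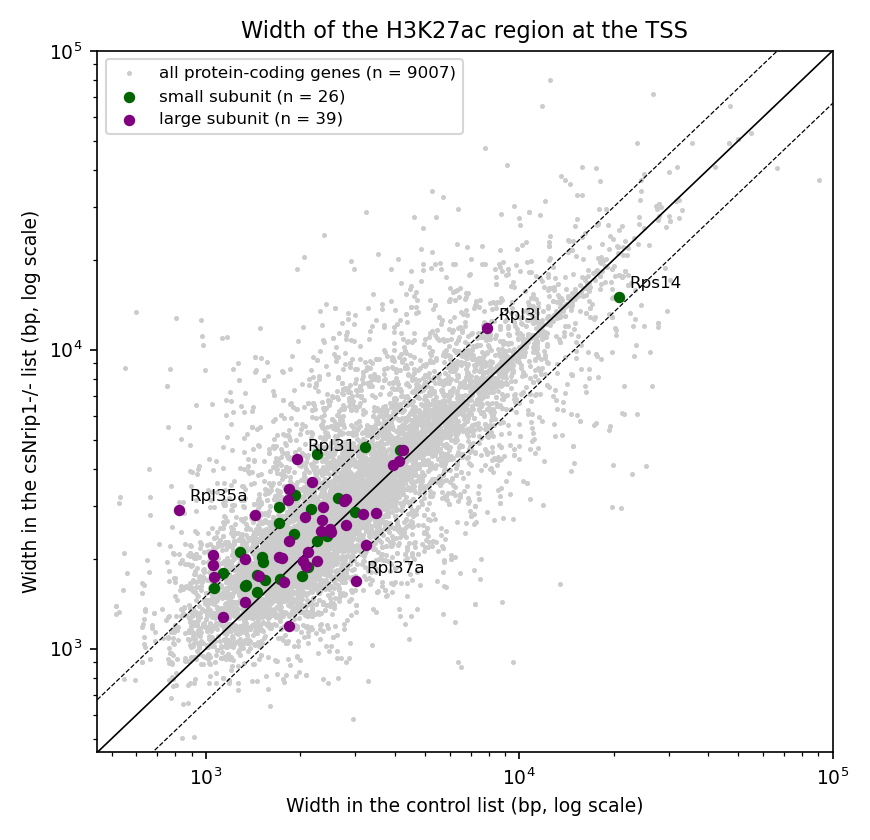
Width of the H3K27ac region at the TSS in control (x axis) and RIP140-null CMs (y axis), both in bp on log scales, for all 9007 protein-coding genes with the TSS in both lists (gray) and for 26 small and 39 large subunit genes. The solid line marks equal widths and the dashed lines 1.5-fold; 16 ribosomal protein genes lie above the upper and 2 below the lower dashed line.

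The extremes of width held different kinds of gene. Among the ribosomal protein genes, the widest TSS regions were at Rps14 (20743 bp in control and 15047 bp in RIP140-null CMs) and Rpl3l (7918 and 11829 bp). The Rps14 region also held the start of the neighbor Ndst1, and most of its control width, 19508 bp, lay upstream. Rpl7 (4252 and 4607 bp) and Rpl27a (4140 and 4240 bp) were also among the 5 widest, each within 1.5-fold between the lists. After Rpl35a, the narrowest control regions of this set were at Rpl36 (1053 and 1900 bp), Rpl22, Rps15a and Rpl12 (1061 and 1742 bp). All 5 were over 1.5-fold wider in the KO list, but they were picked by their control width, so nothing is read from this direction.

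The median difference was larger downstream of the TSS than upstream. At the median of the 65 genes the region reached 839 bp upstream in control and 839 bp in RIP140-null CMs, and 1105 and 1412 bp downstream. The downstream edge lay further out in the KO list at 47 of 65 genes (72.3%; 59.1% of all), and the median shift was 256 bp, against 107 bp over all protein-coding genes. By subunit it lay further out at 22 of 26 small (84.6%) and 25 of 39 large subunit genes (64.1%), with median shifts of 309.5 and 162 bp. The upstream edge lay further out at 39 of the 65 genes (60%; 56.6% of all). Its median shift was 31 bp, against 38 bp over all, which was near the background. At 1 kb downstream of the TSS, 44 of the 76 genes were covered in control (57.9%) and 59 in RIP140-null CMs (77.6%), and over all protein-coding genes the shares were 32.4% and 35.8%. At 1 kb upstream they were 30.3% and 32.9% for ribosomal protein genes and 21.5% and 23.9% for all. At 2 kb downstream, 18.4% and 28.9% of ribosomal protein genes were covered and 18.3% and 20.3% of all, so the control value equaled the background.

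**Figure D4:**
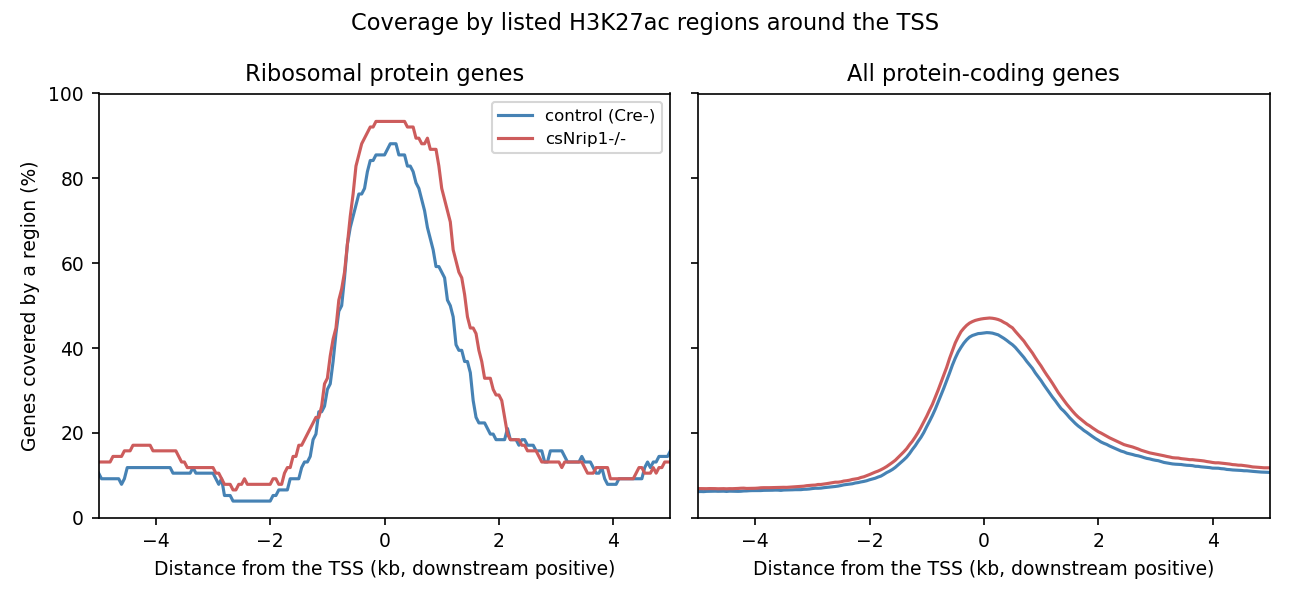
Share of genes (%) covered by a listed region at each distance from the TSS (kb, downstream positive), in control and RIP140-null CMs, for the 76 ribosomal protein genes and for all 21938 protein-coding genes. For ribosomal protein genes the KO curve lies above the control curve at 0.5 kb upstream (73.7% and 82.9% covered in control and RIP140-null CMs), close to it at 1 kb upstream (30.3% and 32.9%), and furthest above it at 0.9 kb downstream (59.2% and 86.8%). Over all protein-coding genes these shares are 37.6% and 41.2%, 21.5% and 23.9%, and 34.2% and 37.8%. The last distance was picked from the curves.

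The subpeak number was taken as a reading of replicate number, with 2 subpeaks taken to mean 2 of 3 replicates. At the TSS, 21 of 65 control regions (32.3%) and 17 of 71 KO regions (23.9%) had exactly 2 subpeaks, against 44.1% and 33.5% over all genes. The 15 genes with 2 subpeaks in control and more in the KO list had a median log2 width ratio of 0.36, and past 1.5-fold 6 of them were wider (40% against 26.6% of all such genes) and 0 narrower (4.06% of all). The 9 genes with the opposite pattern had a median of 0.43, with 2 wider (22.2%; 8.79% of all) and 1 narrower (11.1%; 14.3% of all). Over all protein-coding genes the medians of these patterns were 0.20 and -0.015. Between these patterns the shares past 1.5-fold at ribosomal protein genes thus differed in the direction seen over all genes, and the medians did not. The 6 genes with 2 subpeaks in both lists had a median of 0.24, with 0 wider (14.3% of all) and 1 narrower (16.7%; 6.81% of all). The 35 genes with more than 2 subpeaks in both lists had a median of 0.12, against 0.10 over all such genes, and 8 of them were wider (22.9%; 19.1% of all) and 0 narrower (7.75% of all). The part of replicate number and of library depth in the widths was not tested.

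Regions found in 1 list only were less frequent at ribosomal protein genes than over all genes, by a margin that depended on the regions and window counted. A KO-only region, one that overlaps no control region by at least 1 bp, was found at 7 of the 75 genes with any region (9.33%; 35.2% of all), and a control-only region at 9 (12%; 39.2% of all). Ribosomal protein genes are short, with a median length of 3266 bp against 17425 bp over all protein-coding genes, so their windows are shorter. In a fixed window of 5 kb on each side of the TSS, KO-only regions were found at 5 of 75 genes (6.67%; 14.4% of all) and control-only regions at 7 (9.33%; 13.4% of all), which leaves little of the contrast for control-only regions. With regions of 3 or more subpeaks, chosen after the data were seen, KO-only regions were found at 27 of 67 genes (40.3%; 45.7% of all) and control-only regions at 12 (17.9%; 30.5% of all), so the contrast for KO-only regions was small. The KO-only regions numbered 9 and were 1161 bp wide at the median, and the control-only regions numbered 10 and were 987.5 bp wide. Of these, 8 of 9 and 10 of 10 had 2 subpeaks, against 61% of all KO regions and 68.9% of all control regions. The share among the list-only regions of all genes is not given here. Only the KO-only regions of Rpl10a and Rpl38 held a coding start. After these, the widest KO-only regions were at Rps24 (1580 bp), Rpl39l (1161 bp) and Rpl15 (1010 bp).

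The widest control-only regions were at Rpl19 (2233 bp), Rps15a (2120 bp), Rpl26 (1438 bp), Rps10 (1028 bp) and Rps15 (947 bp). Of these, the Rps10 region lay upstream of the gene, 90 bp from a KO-only region. The 9 genes with a control-only region had a median log2 ratio of covered length of -0.31, which the choice of these genes favors, while the median log2 width ratio at their coding starts was 0.28. The control-only regions of Rps15a and Rps20 lay inside the genes, and that of Rpl19 beyond the 3′ end. Among the 35 genes with 1 region in each list, 7 were longer (20% against 14.8% of the 3547 such genes) and 1 shorter (2.86% against 7.08% of such genes), with a median of 0.19 against 0.07.

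The paralogs expressed in few tissues stood apart from the constitutive genes. Rpl3l replaces Rpl3 in ribosomes of heart and skeletal muscle. Its TSS region measured 7918 bp with 5 subpeaks in control and 11829 bp with 8 in RIP140-null CMs, and 11476 and 14393 bp of its window were covered (log2 0.33). In the KO list the region took in a stretch that a separate control region of 1487 bp had covered, and also the start of Msrb1. The window of Rpl3l overlaps that of Rps2, whose coding start region measured 2636 and 2709 bp.

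Rpl10l and Rpl39l, which replace their X-linked counterparts in male germ cells, had no region at a coding start in either list, and Rpl39l had only a KO region of 1161 bp upstream of the gene. The X-linked Rpl10 had a promoter region of 2506 and 2456 bp and Rpl39 one of 2069 and 2757 bp. Rps27l, a widely expressed paralog, had 1913 and 2425 bp, and Rps27 had 2158 and 2931 bp. Rps4l was not among the protein-coding genes found, and Rps4x, on the X chromosome, had 1334 and 1620 bp.

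Introns of ribosomal protein genes often house small nucleolar RNA (snoRNA) genes, whose products guide the modification of ribosomal RNA. A snoRNA gene lay inside 27 of the 76 genes (35.5%), against 1.18% of all protein-coding genes. The 27 hosts had a median log2 ratio of covered length of 0.11, with 4 longer (14.8% against 12.2% of all host genes) and 0 shorter (6.33% of all host genes). The 45 other genes with a region in both lists had a median of 0.19, with 10 longer (22.2% against 16.3% of all genes without a snoRNA gene) and 2 shorter (4.44% against 8.64% of these). A neighbor's start shared the TSS region of 14 of 65 genes in control (21.5%; 24.6% of all) and 19 of 71 in RIP140-null CMs (26.8%; 25% of all), and the 53 genes with coverage in both lists and no such neighbor start in either had a median of 0.12, with 9 longer (17% against 16.2% of all such genes) and 2 shorter (3.77% against 8.98% of all such genes). The 19 genes with one had a median of 0.27, with 5 longer (26.3% against 16.4% of all such genes) and 0 shorter (7.07% of all such genes). Over all protein-coding genes these medians were 0.08 and 0.10.

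The mitochondrial ribosomal protein and proteasome genes were near the cytosolic genes in some measures and apart in others. The mitochondrial ribosomal protein genes serve translation inside mitochondria. Of these, 15 of 71 were longer (21.1% against 16.3% of all) and 3 shorter (4.23% against 8.6% of all), with a median log2 ratio of 0.15. Their extremes were Mrps28 (1762 and 5557 bp, log2 1.66) and Mrpl22 (7042 and 2215 bp, log2 -1.67), and Mrpl27, Mrps10 and Mrps23 had no region. Of the proteasome genes, 4 of 31 were longer (12.9%) and 1 shorter (3.23%), with a median of 0.12. Their extremes were Psmb8 (1648 and 4737 bp, log2 1.52) and Psmd1 (8150 and 4998 bp, log2 -0.71), and Psmd10 had no region. This set is not constitutive throughout, since Psmb8, Psmb9 and Psmb10 encode inducible subunits of the immunoproteasome, Psmb11 one of the thymus and Psma8 one of the testis. The TSS of Psmb11 and Psma8 lay in no region of either list, and neither did that of Psma6, Psmd5, Psmd9 and Psmd10. Of these, Psma6 and Psmd5 had another coding start in both lists and Psmd9 in the KO list. The TSS of Psmb8, Psmb9 and Psmb10 lay in a KO region. The TSS lay in a control region for 83.3% of mitochondrial ribosomal protein genes and 74.4% of proteasome genes, and in a KO region for 85.9% and 82.1%, against 85.5% and 93.4% of the cytosolic genes. The median TSS region measured 2002 bp in control and 2150 bp in RIP140-null CMs for the first set and 2001 and 2213 bp for the other, so narrow promoter regions were common to these sets. It was over 1.5-fold wider at 11 of 62 mitochondrial ribosomal protein genes (17.7%) and at 2 of 28 proteasome genes (7.14%), against 18.7% of all. Their downstream edge shifted by 112.5 and 76 bp at the median, against 256 bp for the cytosolic genes. The larger shift was not particular to the cytosolic genes, since it was 220 bp at the 8 other ribosomal protein genes and 381 bp at the 9 genes of mTORC1 and the S6 kinases with the TSS in both lists. KO-only regions were found at 20% of mitochondrial ribosomal protein genes and 26.3% of proteasome genes and control-only regions at 14.7% and 10.5%, against 9.33% and 12% of the cytosolic genes. The windows follow gene length, which was 7899.5 and 12361 bp at the median against 3266 bp. The part of gene length in these shares was not tested. Against the background of short genes, the 62 ribosomal protein genes under 10 kb with the TSS in both lists had 11 longer (17.7%) and 1 shorter (1.61%). The 2144 protein-coding genes of that kind had 15.4% longer and 4.66% shorter, with medians of 0.17 and 0.12. This comparison was chosen after the data were seen.

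**Figure D5:**
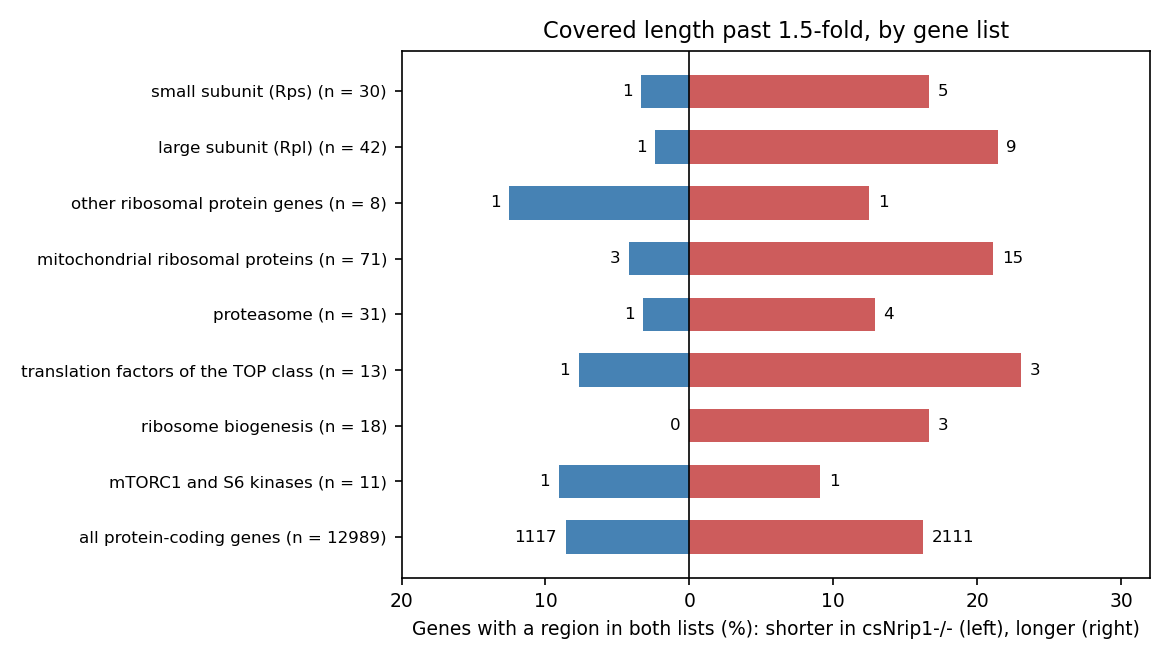
Share of genes with a region in both lists (%) whose covered length was over 1.5-fold longer (right) or shorter (left) in RIP140-null CMs, by gene list, with the number of genes at the end of each bar. Small and large subunit genes show 5 and 9 longer and 1 and 1 shorter, beside 16.3% longer and 8.6% shorter over all 12989 genes.

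The genes of the same pathway outside the naming rule were mixed. Of 10 other ribosomal protein genes, such as those of the acidic stalk, 8 had a region in both lists. Of these, 1 was longer (12.5% against 16.3% of all) and 1 shorter (12.5% against 8.6% of all). At their TSS the median log2 width ratio was 0.08, and the downstream edge lay further out in the KO list at 7 of 8 (87.5% against 59.1% of all). The longer and the shorter were Fau, which encodes a fusion of a ubiquitin-like protein and a small subunit protein (1982 and 3350 bp, log2 0.76), and Rplp1 of the stalk (2189 and 1409 bp, log2 -0.64). The neighbor Mrpl49 had the same covered lengths as Fau and was counted among the longer mitochondrial ribosomal protein genes. Rplp0, the stalk base, had 0 bp in control and 2854 bp in the KO list. Rpsa, which encodes a small subunit protein, had 2073 bp in control and 0 bp in the KO list, the reverse of Rplp0. Both are known as constitutively transcribed genes.

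Translation factors with TOP mRNAs had 3 of 13 longer (23.1% against 16.3% of all) and 1 shorter (7.69% against 8.6% of all), with a median of 0.09. Their TSS region had a median log2 width ratio of -0.12, against 0.21 for ribosomal protein genes. Past 1.5-fold 2 were wider (15.4% against 18.7% of all) and 3 narrower (23.1% against 7.48% of all). The median shift of the downstream edge was -107 bp. Eif3e (2939 and 4745 bp, log2 0.69) was the highest and Tpt1 (3941 and 2333 bp, log2 -0.76) the lowest. Eef1a1, the elongation factor of most tissues, had 0 bp in control and 1563 bp in the KO list, while Eef1a2, its counterpart in adult striated muscle, had 7880 and 7030 bp. Ribosome biogenesis genes had 3 of 18 longer (16.7% against 16.3% of all) and 0 shorter (8.6% of all), with a median of -0.02. The median log2 width ratio at their TSS was 0.14, and the downstream edge shifted by 58.5 bp. Bop1, needed for processing of large subunit ribosomal RNA, was the highest (2380 and 6693 bp, log2 1.49) and Nip7 the lowest (1133 and 797 bp, log2 -0.51). The genes of mTORC1 and the S6 kinases act on ribosomal protein S6 and TOP mRNAs. Of these, 1 of 11 was longer (9.09% against 16.3% of all) and 1 shorter (9.09% against 8.6% of all), with a median of 0.23. Their TSS region had a median log2 width ratio of 0.41, with 2 wider (22.2% against 18.7% of all) and 0 narrower (7.48% of all). Its downstream edge lay further out in the KO list at 9 of 9 genes (59.1% of all). The genes past 1.5-fold in covered length were Mtor itself (5032 and 8137 bp, log2 0.69) and Rheb, its activator (11226 and 3770 bp, log2 -1.57). Rps6kb1, the main S6 kinase, had 3097 and 3101 bp, and Rps6kb2 had no region in either list.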

How the data were processed

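H3K27ac CUT&RUN was performed in CMs of csNrip1-/- and control mice, 3 H3K27ac and 3 IgG samples per genotype. Alignment by the authors used bowtie2 2.4.2 and GRCm38, and samtools served to drop duplicates. They called regions per replicate against IgG with Homer 4.11.1 and merged those found in at least 2 of 3 replicates. The deposited lists give the start and end positions of each region in bp and a score, which was the same for every region and was not used. Regions outside the 19 autosomes and the sex chromosomes (21 control, 14 KO) were left out. Subpeak numbers were read from region names.

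Windows were gene bodies of GENCODE M21 extended by 5 kb. Covered length, TSS region width and list-only regions (no overlap of 1 bp) were computed per gene, and genes past 1.5-fold were counted. The study applied this fold to read counts inside regions, which is another quantity than length or width. Named genes were those with the TSS outside a list, the 5 highest and 5 lowest ratios, the 5 widest and 5 narrowest control TSS regions, the 5 widest list-only regions of each list, the paralogs, genes sharing windows, Rps6, Nrip1, and the highest, lowest and region-free genes of each list. Rpl14, Rpl18, Rplp0, Rpsa, Eef1a1, Rps6kb1, proteasome subunits other than the extremes and neighboring genes were named after their values were seen. The values of 2 genes are not reported here. Members and lists were chosen with earlier results of these data known. Covered length, TSS and list-only calls were tested on simulated data. Python 3.11.15, numpy 2.4.6, scipy 1.17.1 and matplotlib 3.10.9 were used.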

Additional observations from a re-analysis of the deposited data

How the results depend on the processing

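Most of the 90 alternative values, 74, remained within 1.5 times the count or within the 95% binomial interval of the median as reported. Of the medians 0 changed sign, and counts cannot change sign. Counts were compared without the number of genes behind them. A count within 1.5 times can therefore hide a changed share, as with longer genes by regions of 3 or more subpeaks. With a lower fold limit (0.32 on the log2 scale) 23 genes were longer (31.9%; 29.2% of all) and 7 shorter (9.72%; 17.5% of all). With 2-fold 3 were longer (4.17%; 6.4% of all) and 1 shorter (1.39%; 3.26% of all), so the share of longer genes, above that of all genes at 1.5-fold, was below it at 2-fold. Without extension of the gene body 5 genes were shorter (6.94%; 12.1% of all), 3 had a KO-only region (4.05%; 31.2% of all) and 2 a control-only region (2.7%; 35.7% of all). With 1 kb these last counts were 3 (4.05%; 31.7% of all) and 5 (6.76%; 36.3% of all). With reciprocal overlap of 50% they were 14 (18.7%; 50.5% of all) and 19 (25.3%; 53.2% of all), and with regions of at least 1000 bp 4 genes had a control-only region (5.33%; 29.3% of all). Centering on all genes gave a median log2 ratio of covered length of 0.080. Keeping regions with 3 or more subpeaks, an alternative chosen after seeing the data, left 1 gene shorter (2.13%; 10.8% of all) and 27 of 67 with a KO-only region (40.3%; 45.7% of all). It also raised the share of longer genes from 19.4% to 38.3%, of 47 genes (24.3% of all), and counting the gene body alone raised it to 29.2% (17.5% of all). Limiting the genes to those under 10 kb with the TSS in both lists, chosen likewise, also left 1 gene shorter, of 62 in place of 72 (1.61%; 4.66% of all). The limit of the fold, the size of the window and the overlap rule change these counts by construction, and the cause was not tested for the others.

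No paired analysis was possible because the lists carry no values per replicate, and no replicate was left out for the same reason. The depth of each library is unknown, and a promoter found in a single replicate is missing from a list.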
